A study of Homo sapiens with 2 samples.

Results

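The locus described here lies on the long arm of chromosome 15 (hg38) and holds SV2B, SLCO3A1 and the stretch between them that starts at the end of SV2B. Its members are the listed TCF3::HLF-HiChIP interactions in which either 5-kb bin overlaps the body of SV2B (chr15:91099950-91302565) or SLCO3A1 (chr15:91853708-92172435), or lies within chr15:91300001-91450000. This gave 49 of the 49245 interactions of the list, or 0.0995%, and 3.05% of the 1608 on chromosome 15. The locus was selected on the interactions and contact counts of this same list, so their number, strength and crowding are given as a description and were not tested. Both samples came from HAL-01, a B cell leukemia line with the t(17;19) translocation, whose fusion protein TCF3::HLF joins the activation domains of TCF3 to the DNA binding domain of HLF. The cells carried Cas9-GFP and a knockout of wild-type TCF3 and were expanded as a clone, so that an antibody against TCF3 (E2A) recovers the fusion. There was 1 condition with 2 replicates, which the authors merged before calling interactions, so no value here has a replicate error, and the design has no control group. In the HiChIP of this study, chromatin was cross-linked, cut, pulled down with the antibody and then ligated. Each value is a contact count, the number of read pairs that join 2 bins.

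SV2B encodes a glycoprotein of synaptic vesicles and is known mainly from neurons. SLCO3A1 encodes a member of the organic anion transporting polypeptides, membrane carriers that move amphipathic anions such as prostaglandins and thyroid hormone into cells. Between the genes runs CRAT37, a long noncoding RNA gene (chr15:91408708-91653389). All 3 genes are read on the plus strand, so downstream below means toward SLCO3A1 and the end of the chromosome. CRAT37, MIR9-3HG, CHASERR and MCTP2 were chosen for naming after their values were seen.

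TCF3::HLF binds DNA through the basic leucine zipper of HLF, whose palindromic recognition sequence is TTACGTAA, with TTATGTAA as a close form. These letters were searched on both strands of hg38 in the 51 bins that served as anchors of the locus. They occurred 23 times, 21 times as TTATGTAA and 2 times as TTACGTAA. The 6 sites below lie in bins that the following results return to, and the capitals mark the motif. Each is written 5′ to 3′ on the strand that reads TTATGTAA, or on the plus strand for TTACGTAA.
SV2B end, chr15:91300084-91300109, minus strand: ttttatcccTTATGTAAcctgaatca
CRAT37 start, chr15:91412360-91412385, minus strand: gtggggaaaTTATGTAAtcaggccag
CRAT37 intron, strong partner, chr15:91523914-91523939, minus strand: gcatgtcatTTATGTAAtaagaatct
CRAT37 intron, TTACGTAA form, chr15:91465339-91465364, plus strand: tgcagtttgTTACGTAAgaactcggt
SLCO3A1 intron, upstream, chr15:91957676-91957701, plus strand: ctattggccTTATGTAAagttgtatc
SLCO3A1 intron, downstream, chr15:92082141-92082166, plus strand: caaggtcagTTATGTAAtgctggcag
The SV2B site lies in the 3′ untranslated part of the last exon, which spans chr15:91292369-91302565. The site labeled CRAT37 start lies inside CRAT37, downstream of its start at 91408708. It is nearer to the 5′ end, at 91412617, of the minus-strand long noncoding RNA gene ENSG00000289066, which also covers it. A match describes the letters only, and binding at single sites was not measured here.

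The interactions of the locus ran from 3 bins. These were the bin at the end of SV2B (chr15:91300001-91305000), an intergenic bin (chr15:91345001-91350000) and a bin just inside CRAT37 (chr15:91410001-91415000), which also holds the start of the antisense-oriented lncRNA gene ENSG00000289066. They are called the SV2B-end, intergenic and CRAT37-start anchors. Of the 49 interactions, 47 used at least 1 of these anchors and 2 joined a pair of them. Of the 51 anchor bins of the locus, 42 took part in a single interaction of the list.

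**Figure D1:**
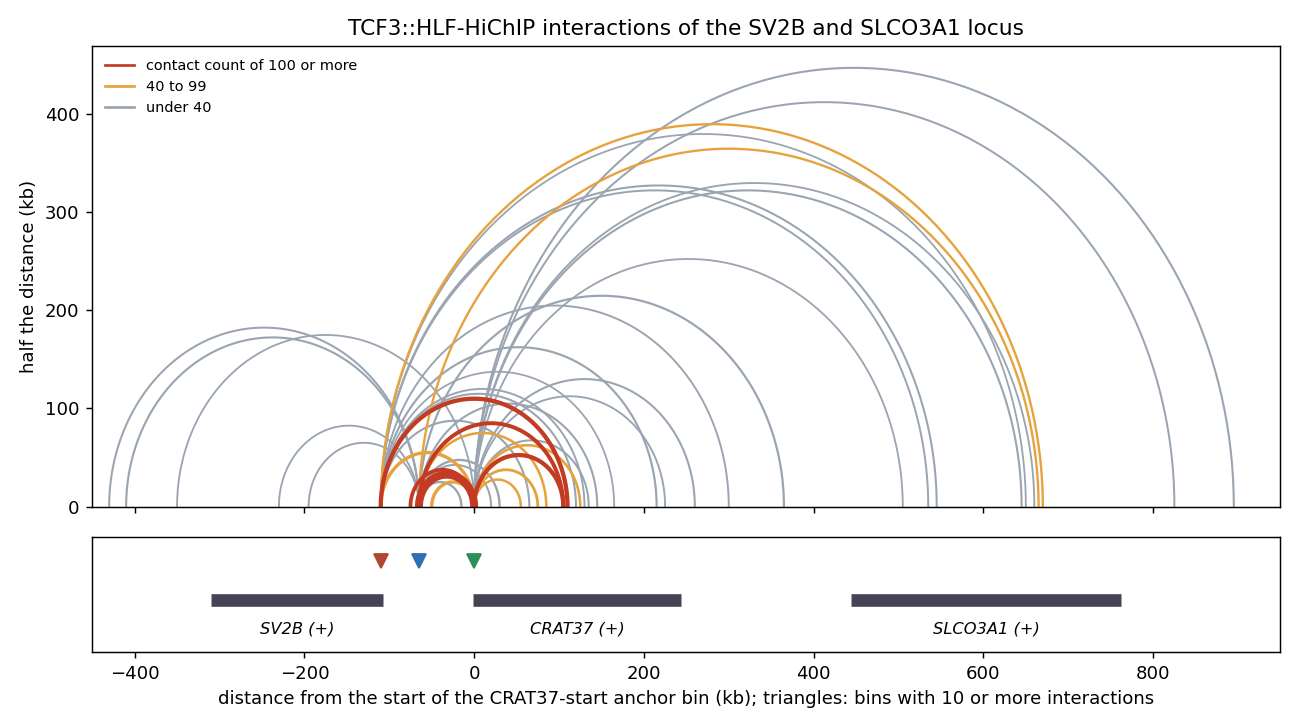
TCF3::HLF-HiChIP interactions of the locus drawn as arcs between their bins, with distance from the CRAT37-start anchor in kb on the horizontal axis and an arc height equal to the radius of the arc (kb). Colors give the contact count in 3 classes, triangles mark the 3 anchors with 10 or more interactions, bars mark gene bodies, and 40 of the 49 interactions fit the window, with the other 9 reaching farther.

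The CRAT37-start anchor was the busiest, with 23 interactions, and ranked 67 among the 53535 anchor bins of the list. Its contact counts ran from 16 to 290 with a median of 28. Of the 23, 13 ran downstream (56.5%, Wilson 95% interval 36.8 to 74.4) and 10 upstream, and its farthest partners lay 1410 kb downstream and 2275 kb upstream. This anchor therefore faced both ways.

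The intergenic anchor had 14 interactions, rank 342, with contact counts from 13 to 290 and a median of 32. It ran downstream in 10 and upstream in 4. The 10 downstream contacts had a median count of 38 and the 4 upstream contacts, from 18 to 30, a median of 23. No gene of GENCODE release 44 that is protein coding or lncRNA overlaps this bin.

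The SV2B-end anchor had 12 interactions, rank 523, with contact counts from 15 to 126 and a median of 27. All 12 ran downstream, away from SV2B, the farthest over 780 kb into SLCO3A1. Among the 1126 bins of the list with 10 or more interactions, 20 (1.78%) had all of them on the same side. Among the 152 bins with exactly 12 interactions, 3 did, this anchor included. The bin also covers the start of a short lncRNA gene, ENSG00000285883, which begins just past the end of SV2B.

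Bins this busy did not often stand so close together. The 3 anchors spanned 115 kb from first to last base, and 124 of the 1126 busy bins (11.0%) belonged to a group of 3 within such a span. The SV2B-end and CRAT37-start anchors also shared partners: 7 of the 11 other partners of the SV2B-end anchor (63.6%) lay within 10 kb of a partner of the CRAT37-start anchor, which was true in reverse of 8 of 21 (38.1%). For the SV2B-end and intergenic anchors these numbers were 2 of 11 and 2 of 13. For the intergenic and CRAT37-start anchors they were 4 of 13 and 4 of 21. These shares were not compared with those of other busy bins that lie close together.

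Contacts among the anchors and an intron of CRAT37 were the strongest of the locus. The intergenic and CRAT37-start anchors, 65 kb apart, had a contact count of 290 (exact Poisson 95% interval 258 to 325). This was the 4th largest count of the list, and its FitHiChIP p-value, 4.68e-262, was the 6th smallest. Listed interactions at the same distance had a median count of 26, so the count was 11.2 times that median, the 5th largest such ratio.

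A bin pair in the CRAT37 intron took up the next places. The SV2B-end anchor met the bin starting at 91520001 with a count of 126 (105 to 150), over 220 kb. The CRAT37-start anchor met the neighboring bin at 91515001 with 123 (102 to 147), over 105 kb. The intergenic anchor met that same bin with 111 (91.3 to 134), over 170 kb. Their intervals overlap, so these 3 counts could not be ordered by counting error alone, and each stood 5.25, 4.92 and 4.62 times above the median at its distance. The pair of intron bins had 3 interactions in all, and all 3 went to the busy anchors. The site shown above as the strong partner lies in the bin at 91520001, and the bin at 91515001 held neither form of the motif. The merged group of the contact of 123 spans chr15:91505001-91530000 in the intron, so it also includes the bin with that site.

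By the count of the single bin pair, the next members were weaker but still well above other contacts of their distance. The bin at 91335001, 10 kb before the intergenic anchor, met the CRAT37-start anchor with a count of 103 (84.1 to 125), 3.96 times the median. The SV2B-end and CRAT37-start anchors met with 85 (67.9 to 105), 3.40 times the median. Summed over its merged group, which adds further bin pairs, this contact held 318 read pairs. The sums for the CRAT37 intron contacts of 123, 126 and 111 were 256, 141 and 111. These groups differ in size, so their sums do not rank the contacts. The deposited fraction of significant bin pairs was 0.5 in the group of 318 and 1.0 in those of the intron contacts. The bin at 91360001 also met the CRAT37-start anchor with 85, and FitHiChIP had placed it in the same merged group as the pair of 290. The SV2B-end and intergenic anchors lie 45 kb apart, below the 50 kb at which the list starts, so a contact between them could not have been listed.

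Counts of 100 or more were rare in the list, with 96 interactions (0.195%), and 5 of these belonged to the locus (10.2% of its members). These 5 held 753 of its 2121 read pairs, or 35.5%. The other 44 members had counts from 13 to 85. Over all 49, the median count was 28 (13 to 290), with 24 (7 to 615) in the list, and the median ratio to other interactions of equal distance was 1.19. The ratio was above 1 in 34 members, at 1 in 1 and below 1 in 14, and above 2 in 9 (18.4%, with 2.89% in the list). The median distance was 325 kb, from 50 to 2855 kb, with 255 kb in the list, and 7 members (14.3%) spanned more than 1 Mb, with 13.7% in the list.

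The strong contacts closed into a triangle. The intergenic anchor, the CRAT37-start anchor and the intron bin at 91515001 were each listed with both of the others, with counts of 290, 123 and 111. The list held 253 such closed triplets of bins. The smallest of the 3 counts had a median of 20 over all triplets, was 111 here and at most 46 in the others. This comparison was chosen after the values of the locus were seen. FitHiChIP kept representative bin pairs of nearby contacts, which limits triplets that share exact bins. With the full bin ranges of each merged group, 659 triplets closed, and this triplet still had the largest minimum, 111. The triplet of the SV2B-end anchor, the CRAT37-start anchor and the same stretch of intron then came next, with 85, and the largest minimum outside the locus was 66. The third triplet of the locus, of the SV2B-end and CRAT37-start anchors with the SLCO3A1 intron from 92055001, had a minimum of 16 and ranked 565 of the 659.

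CRAT37 held more partners than any other stretch of the locus. Its body took 17 interactions of the 3 anchors, with counts from 15 to 126 and a median of 32. Its annotated starts between 91408708 and 91408735 had 25 interactions within 10 kb, 23 of them those of the CRAT37-start anchor, which begins just downstream. The start bin itself was no anchor. The start at 91463337 had 2, with counts of 46 and 16. The contact of 46 joined the CRAT37-start anchor to the bin that holds the TTACGTAA site shown above, 55 kb downstream. The contact of 16 joined the bin at 91470001 to the bin at 90825001 and lies outside the rule of the locus.

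Contacts of all 3 anchors reached SLCO3A1. Its body, 318.728 kb with 10 exons, was touched by 9 interactions, through 9 of the 65 bins that it covers (13.8%), and 8 of the 9 came from the busy anchors. Their counts ran from 16 to 40 with a median of 25. Of these 8, the SV2B-end anchor gave 4, the CRAT37-start anchor 3 and the intergenic anchor 1. Among the 490 protein-coding genes within 20% of its length, the median was 8 interactions (quartiles 3 and 17), and 42.7% had more than SLCO3A1.

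Within the gene, 5 of the 8 contacts fell in a patch of 30 kb in intron 2 (chr15:92055001-92085000), which overlaps no exon of any annotated SLCO3A1 transcript. The limits of the patch were set after the contacts were seen. From the CRAT37-start anchor, the bins at 92055001 and 92070001 had counts of 28 (18.6 to 40.5) and 19 (11.4 to 29.7). From the SV2B-end anchor, the bins at 92060001 and 92080001 had 16 (9.15 to 26.0) and 40 (28.6 to 54.5). The intergenic anchor met the bin at 92075001 with 40 (28.6 to 54.5). The patch was thus listed with each of the 3 anchors, over 645 to 780 kb, with 143 read pairs in all. The 2 counts of 40, from the SV2B-end and intergenic anchors, were 1.82 and 1.95 times the median at their distances. The count of 28 was 1.19 times that median, and those of 19 and 16 were below it, at 0.826 and 0.696 times. The downstream SLCO3A1 site shown above lies in the bin at 92080001.

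The other contacts of SLCO3A1 lay nearer to its start. The CRAT37-start anchor met the bin at 91915001, which holds a coding exon, with a count of 17. The SV2B-end anchor met the bins at 91945001 and 91955001 in intron 2 with 23 and 27, the latter with the upstream SLCO3A1 site. The ninth interaction did not use a busy anchor. It joined the bin at 92000001, also in intron 2, to a bin in CRTC3, a coactivator of CREB, over 1450 kb with a count of 35 (24.4 to 48.7).

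SV2B was touched mostly at its end. Its body, 202.616 kb with 13 exons, had 14 interactions, and 12 of these came from the bin at its end. The other 2 joined bins at 91180001 and 91215001, both in intron 1, to the intergenic anchor, with counts of 18 (10.7 to 28.4) and 20 (12.2 to 30.9). These were 0.735 and 0.769 times the median at their distances. Of the 42 bins that SV2B covers, 3 (7.14%) were anchors. The share of anchors over all 5-kb bins of the genome was not computed. Neither this share nor that of SLCO3A1 therefore has a reference. Among 859 protein-coding genes within 20% of its length, the median was 5 interactions (quartiles 2 and 10), and 15.9% had more than 14. The bodies of SV2B and SLCO3A1 were joined by 4 interactions, all from the SV2B-end anchor.

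Few of the annotated starts of both genes had listed contacts. The canonical start of SV2B at 91100257 had none within 10 kb. Of its 6 annotated starts, only that at 91225870 had 1, the contact of 20 read pairs in intron 1. The canonical start of SLCO3A1 at 91853708 had none, and of its 13 starts only that at 91941318 had 1, the contact of 23 read pairs from the SV2B-end anchor. No bin that holds a start of either gene was an anchor. Over the whole list, the smallest counts at the distances from these canonical starts to the 3 anchors were 11 to 13 read pairs. The smallest listed counts of the anchors themselves, at any distance, were 15 for the SV2B-end, 13 for the intergenic and 16 for the CRAT37-start anchor. Weaker contacts with the starts may therefore be present and not listed. Whether the contacts go with transcription of either gene was not tested, since expression was not measured in these samples.

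Long contacts upstream came chiefly from the CRAT37-start anchor. It had 6 partners before SV2B, at 350 to 2275 kb. The strongest was the bin at 89420001 in MIR9-3HG, the host gene of a microRNA known from neural progenitors, with a count of 40 (28.6 to 54.5) over 1990 kb. This was 2.16 times the median at that distance, a median that rests on 10 listed interactions. In BLM, the helicase mutated in Bloom syndrome, the bin at 90800001 had a count of 32, and it held both forms of the motif. The bins in AP3S2, a subunit of an adaptor complex for vesicle transport, and in IQGAP1, a scaffold of the actin cytoskeleton, had 30 and 22. The bin in ABHD2, a lipid hydrolase, had 16, and an intergenic bin at 91060001 had 17.

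The intergenic anchor reached instead to a pair of bins nearer by, inside PRC1 and VPS33B. Neither bin holds the 5′ end of either gene. The bin at 91000001 lies within 10 kb of the 5′ end of PRC1 at 90995629, so 2 contacts counted for PRC1 promoters. The bin at 90980001, with starts of shorter transcripts of PRC1, a microtubule bundler of dividing cells, and of PRC1-AS1, had a count of 26 over 365 kb. The bin at 91000001, toward the 3′ end of VPS33B, which encodes a protein of vesicle fusion, holds starts of shorter transcripts of that gene alone and had 30 over 345 kb. These counts were 1.13 and 1.25 times the median at their distances. Downstream of SLCO3A1, 4 contacts of the busy anchors had counts from 13 to 28. They included the bin at 92820001, with the start of ENSG00000289200 inside CHASERR, with 23, and the bin at 93310001, with the start of ENSG00000257060, with 13, the smallest count of the locus. The farthest member, which also ends past SLCO3A1 but uses none of the busy anchors, joined the bin at 91400001 to the bin at 94255001 in MCTP2 over 2855 kb, with 26.

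Of 19 neighboring genes looked up on chromosome 15, 7 had an interaction with the locus in their body. These were ABHD2, AP3S2, IQGAP1, CRTC3, BLM, PRC1 and VPS33B. The other 12 had none, among them FURIN, FES and MAN2A2, which lie closer to the anchors than BLM but have shorter bodies. How often genes of like length and distance meet other busy bins was not counted, so the 7 of 19 have no reference. Interactions of the paralogs were counted over their bodies, whatever the partner. SV2A had 1 interaction and SV2C none. Among the other transporters, SLCO1A2 had 9, SLCO5A1 7, SLCO2B1 5 and SLCO4A1 2, and SLCO1B1, SLCO1C1 and SLCO2A1 had 1 each. SLCO1B3, SLCO4C1 and SLCO6A1 had none. Of the 14 genes of both families, 10 had any, while 51.2% of all 19970 protein-coding genes did, and SV2B, with 14, had the most, without allowance for the different lengths of the genes.

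HLF motifs were found in 20 of the 51 anchor bins of the locus (39.2%, Wilson 95% interval 27.0 to 52.9). The share was 31.5% over all 53535 anchor bins, which lies inside that interval, and 22.2% (14.5 to 32.4) in 81 bins 25 kb from the locus anchors that were no anchors themselves. In the 87432 bins that flank all anchors of the list in the same way, the share was 28.2%. It was 66.7% among anchor bins with 10 or more interactions. The SV2B-end and CRAT37-start anchors each held 1 site and the intergenic anchor held none. As single bins, the strongest contact of the locus thus joined a bin with the motif to a bin without it. The merged group of that contact also includes the bin at 91360001, which held 2 sites. At least 1 bin held the motif in 39 of the 49 interactions (79.6%, with 66.8% in the list), and both did in 14 (28.6%, with 16.2%). Since 47 interactions share 3 anchors, of which 2 hold the motif, these shares do not count independent sites.

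Just outside the rule, 9 interactions had a bin within 100 kb of the stretch from SV2B to SLCO3A1 without touching either gene or the window, with counts from 14 to 28. Of these, 6 had a bin between the window and SLCO3A1. Just inside, the members with a partner between CRAT37 and SLCO3A1 had counts from 21 to 34. Shared sequence between the bins of a member was small, at most 7 stretches of 31 bases, and 0 in the 5 members with counts of 100 or more. Duplicate read pairs were not removed by the authors, so a count can include copies of the same molecule, and the Poisson and Wilson intervals cover counting error only.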

How the data were processed

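Per the study's methods, the reads of the 2 replicates were trimmed (TrimGalore 0.6.6), pooled and mapped to hg38 by BWA-MEM. Ligated pairs were read out with pairtools parse, duplicates were left in, and MACS2 peaks served as the reference. FitHiChIP tested pairs of 5-kb bins at distances of 50 kb to 3 Mb, kept those with a q-value below 0.01 and grouped adjacent ones. Its version was not given in the sources used here. The deposited counts are raw read pairs, of a bin pair or summed over its group, and come to 1268490 over the list, of which 2121 (0.167%) fell in the locus. The p-value and q-value deposited for each pair are set against an expectation for its distance and the bias of its bins. A deposited fraction states how densely a group is filled with significant pairs. It is given only beside the group sums of the contact between the SV2B-end and CRAT37-start anchors and of the CRAT37 intron contacts.

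The list holds called interactions only, so an absent pair is one that was not listed. All bins lay within their hg38 chromosomes. Genes, exons and starts came from GENCODE release 44, and sequences from hg38. Promoters were windows of 10 kb on both sides of an annotated start. Ratios divide a contact count by the median count of all listed interactions at the same distance. Intervals are exact Poisson or Wilson 95% intervals. No test was run, since the samples form 1 merged library. Named were both genes, genes with a start in an anchor bin, set lists of paralogs and neighbors, the strongest members and bins with 10 or more interactions. The members and lists were chosen with earlier results of these data known. Alternatives were stricter limits on q-value and contact count, distances up to 1 Mb, merged bin ranges, summed contact counts, wider gene bodies, narrower promoters, distances matched within 10%, the window alone, and a stricter motif. Counting each merged group once and closing triplets over merged ranges were added after the data were seen. Computations used Python 3.11.15 with pandas 2.3.3 and scipy 1.17.1, and the scripts were tested on simulated data.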

Additional observations from a re-analysis of the deposited data

How the results depend on the processing

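Of 81 alternative values for 13 results, 73 stayed within 1.5 times of the given count or inside its counting interval, and 8 moved. The contact count of the strongest pair was 490 in place of 290 when summed over its merged group, which adds further bin pairs. With a q-value under 1e-05, the contacts between the window chr15:91300001-91450000 and SLCO3A1 fell from 8 to 5. Those between the window and SV2B fell from 3 to 1, and those at SV2B starts from 1 to 0. The window includes the SV2B-end anchor. Its 4 contacts with SLCO3A1 are among the 8, and its contact with the CRAT37-start anchor is among the 3. With a contact count of at least 20, the contacts between the window and SLCO3A1 were also 5. With only the bin that holds a start, the contacts at the starts of SV2B and of SLCO3A1 each went from 1 to 0. With TTACGTAA alone, the share of anchor bins with the motif was 3.92% in place of 39.2%. The count of 49 interactions, the 23 of the CRAT37-start anchor and the rank of the triplet were among the values that did not move. No paired analysis was possible because the authors merged the replicates before the interactions were called, and leaving out a replicate was not possible for the same reason. The smallest count in the list was 7 read pairs, and the effect of depth was not tested.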
